A study of Mus musculus with 4 samples.

Results

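MHC class II molecules present peptides from ingested protein to CD4+ T cells. A set of 9 genes of this route was followed through subcutaneous tumors of LLC, a Lewis lung carcinoma line of mouse origin, 72 h after hypofractionated radiotherapy. The genes were H2-Aa, H2-Ab1, H2-Eb1, Cd74, H2-DMa, H2-DMb1, H2-DMb2, H2-Oa and Ciita, and all 9 of them were found by symbol among the 18596 genes that every deposited table listed. They were chosen by measured values of these same libraries, namely their levels in cell types of the NT library and of the RT libraries. The levels and ratios below therefore describe these tumors, and no test was made between the groups.

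The tumors grew in C57BL/6N mice that were 6 to 8 weeks old. Irradiated tumors were given 24 Gy, as 8 Gy on each of days 7 to 9 after injection (3 fractions), and 3 of them made the RT group, with a library for each tumor (RT1, RT2, RT3). The radiation naive group, NT, was 1 library made from 3 mock treated tumors pooled, so the spread between untreated tumors was not measured and cannot be told apart from an effect of the treatment. RNA molecules were counted by unique molecular identifiers (UMIs) in dissociated single cells.

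In an antigen presenting cell the alpha and beta chains of class II assemble on the invariant chain, which fills the groove and guides the complex to late endosomes. Lysosomal proteases trim the invariant chain, H2-DM then exchanges its last fragment for a peptide, and H2-O restrains H2-DM. Transcription of these genes depends on the coactivator Ciita, which is carried to their promoters by factors bound at the X, X2 and Y boxes. Dendritic cells hold the machinery at rest, whereas macrophages and many other cells take it up mainly in response to interferon gamma.

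On GRCm38, 7 of the 9 genes lie in the class II region of chromosome 17, in the order H2-Oa (34092340 to 34095234), H2-DMa (34119541 to 34139101), H2-DMb2 (34143307 to 34151555), H2-DMb1 (34153072 to 34160230), H2-Ab1 (34257689 to 34269419), H2-Aa (34282744 to 34287823) and H2-Eb1 (34305867 to 34316674). H2-Aa is read from the minus strand and the other 6 genes from the plus strand. Ciita lies on chromosome 16 (10480059 to 10528418), and Cd74, the invariant chain gene, lies outside the class II region as well.

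The RefSeq promoter table (GRCm38.p6) held 6 of the 9 genes, and H2-Ab1, Cd74 and Ciita were not among them. The 250 bases before each start were searched on both strands for the letters AAC and TGATG with any 3 bases between them (X box), TGACGTCA (X2 box) and TGATTGG (Y box), of which none overlapped another in the promoters shown. Both Y box letters and X or X2 box letters, on either strand, in any order and at any distance, were found in 0.177% of 32851 promoters. Those of H2-Aa, H2-Eb1, H2-DMb1 and H2-DMb2 were among them. The 3 stretches below are shown because they let a reader see the box letters that these genes share. They run 5′ to 3′ on the strand of the gene, with X or X2 box letters first and Y box letters second in capitals.
H2-Aa, chr17:34287852-34287918, minus strand: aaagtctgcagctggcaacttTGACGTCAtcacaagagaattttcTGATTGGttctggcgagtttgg
H2-Eb1, chr17:34305761-34305827, plus strand: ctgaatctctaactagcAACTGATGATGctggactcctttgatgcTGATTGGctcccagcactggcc
H2-DMb2, chr17:34145112-34145178, plus strand: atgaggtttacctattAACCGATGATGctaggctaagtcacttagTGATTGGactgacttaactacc

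Between the letters of the first box and of the Y box lay 16 bases in H2-Aa, 17 in H2-Eb1 and 18 in H2-DMb2. The Y box letters began 50, 61 and 92 bases before the starts that the promoter table uses for these genes. For H2-DMb2 and H2-DMa these starts differ from those of the gene spans given above. The H2-DMb2 window (34144999 to 34145298) and both H2-DMa windows lay inside those spans. In H2-DMb1 the X and Y box letters were again 18 bases apart, H2-Oa held Y box letters alone, and neither of the 2 windows of H2-DMa held any of the letters. Singly, X box letters were found in 0.539% of all promoters, X2 box letters in 1.55% and Y box letters in 7.23%. A match describes the letters of a window and says nothing of binding in these cells.

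NT had 69667759 UMIs over 10141 barcodes. RT1 had 78585759 over 15346, RT2 108699844 over 14994, and RT3 85660188 over 15324. Throughout, 3 values for RT are given in the order RT1, RT2, RT3. RT2 stood apart in its format, since its table listed 18605 genes against 32285 in the others and no barcode passed 11.95% mitochondrial UMIs, where the other libraries reached 91.5% to 97.0%. RT2 also had the most UMIs in total, although the median cell was deeper in NT (5709 UMIs against 5200 in RT2). Each result is given with its value in RT2 and, where it matters, without it. Between 182 and 277 barcodes were shared by any pair of libraries, where 153 to 236 would be met if barcodes were drawn at random.

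After filtering, 55058 cells were clustered without the 9 genes, so that the genes could not shape the cell types in which they were then read. Clusters named by markers held 26234 tumor cells, 7363 macrophages, 6791 monocytes, 511 dendritic cells, 314 endothelial cells and 1703 lymphocytes. NT contributed 699 macrophages, 581 monocytes and 78 dendritic cells, against 1481 to 2628, 1988 to 2202 and 114 to 193 in the RT libraries. Because the same markers named the clusters, their sums describe the labels and do not test them. The 9 macrophage markers summed to 8911 CPM (UMIs per 1000000 UMIs of the same cell type and library) in NT macrophages and 2119 CPM in NT monocytes, and the 10 dendritic markers to 4504 CPM in NT dendritic cells and 59.98 CPM in NT macrophages. Of the cells, 5917 (led by Dpt, Sox9 and Fn1), 4323 (shallow) and 903 (led by Chil3, Cxcl3 and Osm) stayed unnamed.

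Class II RNA was concentrated in few cells. Dendritic cells made up 0.782% of NT cells and 0.759% to 1.29% of RT cells, and yet carried 10.2% of all class II UMIs in NT, 15.98% in RT1, 15.9% in RT2 and 19.3% in RT3. Macrophages carried 54.7% in NT and 39.4%, 44.2% and 42.8% in RT. Monocytes carried 25.6% in NT and 35.8%, 26.3% and 25.5% in the RT libraries. Tumor cells, the most numerous type, carried between 3.03% and 6.85%.

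Summed over the 9 genes, NT macrophages held 16709 CPM (exact Poisson 95% interval 16551 to 16869, counting error only) and RT macrophages 2054, 4133 and 3962 CPM in RT. NT monocytes held 19492 CPM and RT monocytes 4534, 5439 and 3494 CPM. Dendritic cells held 40108 CPM in NT and 34399, 29824 and 30952 CPM in RT. In macrophages and monocytes NT thus lay far above each RT library, and in dendritic cells the gap was small beside the level. Over all kept cells the sum was 1126 CPM in NT, 598 in RT1, 1146 in RT2 and 492 in RT3. RT2 thus lay slightly above NT there, while its macrophages and monocytes lay far below those of NT.

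**Figure D1:**
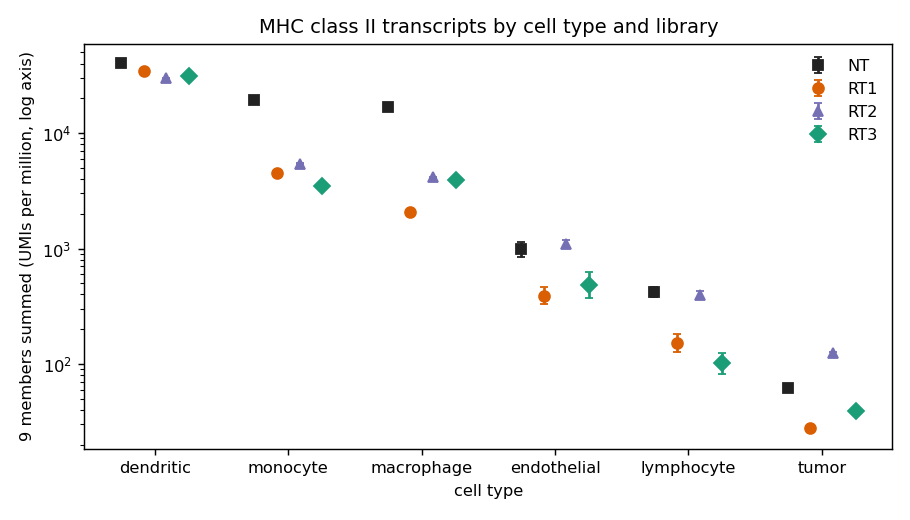
Summed level of the 9 class II genes (CPM, log axis) in each cell type and library, 1 point per library. Dendritic cells lie highest in every library, macrophages and monocytes of NT lie above those of RT1 to RT3, and tumor cells lie lowest, at 28.0 to 123 CPM.

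Every ratio below is the log2 of an RT level over the NT level, with 0.5 UMI added to each sum. Means are over the 3 RT libraries, with their SD (n = 3). Only genes with at least 50 UMIs over the 4 libraries of a cell type entered a count. In macrophages 8 of the 9 genes met this floor, and all 8 were lower than NT in every RT library, by at least 2-fold in each. Among all genes that met the floor, 32.8% were lower and 34.6% higher in every RT library, and 2.42% were at least 2-fold lower. Because this contrast chose the genes, nothing is read from the gap between these shares. The median of the 8 genes was -2.94 in RT1, -1.55 in RT2 and -2.01 in RT3, against 0.01 for the median over all genes tested, averaged over the 3 RT libraries.

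H2-Aa, the alpha chain of I-A, stood at 6805 CPM in NT (95% interval 6704 to 6907) and at 857, 1539 and 1697 CPM in RT. Its mean log2 ratio was -2.38 ± 0.53, and the 3 RT tumors retained on average 19.2% of the NT level. H2-Ab1, the beta chain that pairs with it, stood at 4635 CPM in NT and at 624, 1198 and 1140 CPM in RT (-2.29 ± 0.52). RT1 was the lowest library for both chains, and RT2 and RT3 lay close together.

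H2-Eb1 encodes the beta chain of I-E, which C57BL/6 mice do not assemble because their alpha chain gene is defective. Its RNA was nonetheless present at 3816 CPM in NT macrophages, and at 402, 897 and 784 CPM in RT (-2.54 ± 0.62). Cd74, the invariant chain, stood at 1269 CPM in NT and at 141, 427 and 287 CPM in RT (-2.30 ± 0.81). Both followed the order of the I-A chains at their low end, with RT1 lowest.

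The peptide editors are read from far fewer UMIs. H2-DMa, the alpha chain of H2-DM, stood at 79.6 CPM in NT macrophages and 15.2, 33.4 and 27.6 CPM in RT (-1.72 ± 0.59). H2-DMb1 stood at 64.3 CPM in NT and 9.42, 23.0 and 17.5 CPM in RT (-2.04 ± 0.66), and its neighbor H2-DMb2 at 13.3 CPM in NT and 2.24, 4.66 and 3.54 CPM in RT (-1.99 ± 0.52). The transcripts of these 2 beta chain genes matched at 86.0% of aligned bases but at 66.4% over their last 400 bases, where a 3′ assay reads, and whether reads were split between them was not tested. H2-Oa, a chain of the H2-DM inhibitor, had 0 UMIs in macrophages of all 4 libraries. By a convention apart from the 95% intervals, a count of 0 was taken to allow up to 3 UMIs. That would amount to 1.18 CPM in NT and 0.225 to 0.663 CPM in RT.

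Ciita, the coactivator, was the member with the widest spread. It stood at 26.7 CPM in NT macrophages (68 UMIs, 95% interval 20.7 to 33.8), 2.58 CPM in RT1 (23 UMIs), 10.4 CPM in RT2 (139 UMIs) and 5.75 CPM in RT3 (26 UMIs). The mean log2 ratio was -2.30 ± 1.00. The RT libraries differed among themselves by more than their counting intervals between RT1 and RT2, which ran from 1.63 to 3.87 and from 8.78 to 12.3 CPM, and all lay below the interval of NT.

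**Figure D2:**
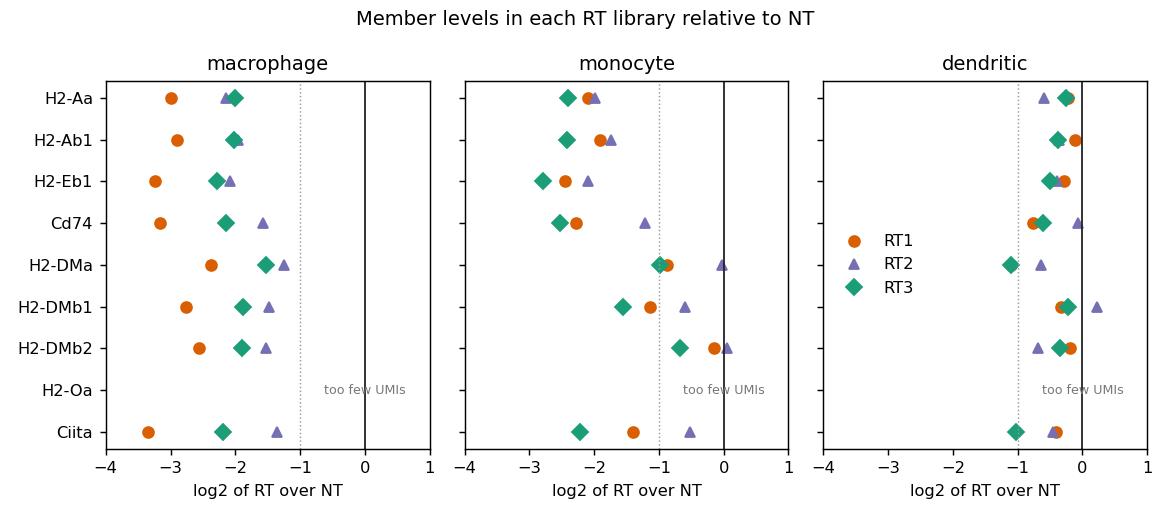
Log2 ratio of each RT library over NT (x axis) for each member (y axis) in macrophages, monocytes and dendritic cells, 1 marker per RT library. The solid line marks no difference and the dotted line a 2-fold lower level. All macrophage markers lie left of the dotted line, and the dendritic markers lie mostly between the lines.

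In monocytes the classical chains and Cd74 were at least 2-fold lower in every RT library, and the peptide editors and Ciita were not. Of the 8 genes above the floor, 7 were lower in every RT library, and those 4 were at least 2-fold lower. Among all genes 26.8% were lower, 38.4% higher, and 1.13% at least 2-fold lower. The median of the 8 genes was -1.65, -0.91 and -2.31 in RT, against 0.08 for the median over all genes tested (RT average). H2-Aa stood at 7552 CPM in NT and 1769, 1904 and 1432 CPM in RT (-2.16 ± 0.21). H2-Ab1 stood at 5937 CPM in NT and 1581, 1785 and 1112 CPM in RT (-2.02 ± 0.36), and H2-Eb1 at 4591 CPM in NT and 837, 1074 and 663 CPM in RT (-2.45 ± 0.35). Here RT3 was the lowest library for each of the chains.

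Cd74 stood at 1245 CPM in NT monocytes and 257, 536 and 217 CPM in RT (-2.00 ± 0.69). H2-DMa stood at 56.6 CPM in NT and 31.0, 55.9 and 28.8 CPM in RT (-0.63 ± 0.52), so that RT2 matched NT. H2-DMb1 stood at 52.7 CPM in NT and 24.0, 35.1 and 18.0 CPM in RT (-1.10 ± 0.48). H2-DMb2 alone lay on both sides of NT, at 25.4 CPM in NT and 23.1, 26.8 and 16.1 CPM in RT. Ciita stood at 32.2 CPM in NT (33 UMIs) and 12.3, 22.6 and 6.88 CPM in RT (45, 136 and 21 UMIs), a mean log2 ratio of -1.38 ± 0.84.

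Dendritic cell markers, when summed, were also lower in monocytes of every RT library than in those of NT. Among the RT libraries, RT3 had the lowest class II sum of monocytes and the highest sum of these markers. Their 10 genes summed to 121 CPM in NT monocytes, and to 38.4, 43.9 and 47.2 CPM in RT monocytes. Fscn1, which bundles actin in mature dendritic cells and was also present in tumor cells at 389 CPM in NT, was the most abundant of them at 42.9 CPM in NT. Cd209a, a lectin of monocyte-derived dendritic cells, stood at 34.1 CPM in NT and 1.91, 3.49 and 3.60 CPM in RT. All 10 markers were detected in NT monocytes, whereas Xcr1 was at 0 in each RT library. In macrophages the same markers summed to 59.98 CPM in NT and 38.3, 33.8 and 58.8 CPM in RT, with Flt3 at 0 in NT, RT1 and RT3. Without the cells that held any UMI of a dendritic marker (96 NT macrophages and 63 NT monocytes), an alternative chosen after seeing the data, the mean of the medians was -2.15 ± 0.71 in macrophages and -1.53 ± 0.70 in monocytes, against -2.17 ± 0.71 and -1.62 ± 0.70 with them. B cell markers were near 0 in both types, at 4.31 CPM or less when summed.

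Dendritic cells kept most of their class II RNA. Of the 8 genes above the floor 7 were lower in every RT library, where 28.2% of all genes were lower and 32.1% higher. At least 2-fold lower were 0 of the 8, against 0.773% of all genes. The median of the 8 genes was -0.31, -0.43 and -0.44 in RT, against 0.03 for the median over all genes tested (RT average), with a mean of -0.39 ± 0.07 that was the smallest and the least spread of the 3 myeloid types. Without RT2 the mean of the medians was -2.48 in macrophages, -1.98 in monocytes and -0.38 in dendritic cells.

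H2-Aa stood at 14591 CPM in NT dendritic cells and 12559, 9722 and 12211 CPM in RT (-0.35 ± 0.20). H2-Ab1 stood at 14414 CPM in NT and 13310, 11242 and 11044 CPM in RT (-0.29 ± 0.15), and H2-Eb1 at 8118 CPM in NT and 6632, 6188 and 5725 CPM in RT (-0.40 ± 0.11). The NT value was the highest of the 4 for each chain, by a margin comparable to the distance between RT libraries for H2-Aa. Cd74 stood at 2171 CPM in NT and 1274, 2070 and 1428 CPM in RT (-0.48 ± 0.37), with RT2 close to NT.

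Among the editors, H2-DMa stood at 142 CPM in NT dendritic cells and 64.8, 91.9 and 65.2 CPM in RT (28, 14, 61 and 17 UMIs; -0.95 ± 0.27). H2-DMb1 lay on both sides of NT, at 116 CPM in NT and 92.6, 139 and 99.8 CPM in RT, and H2-DMb2 stood at 359 CPM in NT and 315, 225 and 284 CPM in RT (-0.41 ± 0.25). Dendritic cells carried 51.8% of the H2-DMb2 UMIs in NT and 37.6%, 37.8% and 50.3% in RT, and monocytes 19.0% in NT and 46.96%, 40.9% and 33.3% in RT. Ciita stood at 197 CPM in NT dendritic cells and 148, 145 and 95.9 CPM in RT (39, 32, 96 and 25 UMIs; -0.63 ± 0.35). H2-Oa had 2 UMIs in dendritic cells of all libraries, while H2-Ob, which encodes its partner chain, stood at 116 CPM in NT and 41.7, 73.8 and 49.9 CPM in RT (-1.10 ± 0.39, 23, 9, 49 and 13 UMIs).

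The order of the cell types was the same at the top for 8 of the 9 genes. H2-Aa, H2-Ab1, H2-Eb1, Cd74, H2-DMa, H2-DMb1, H2-DMb2 and Ciita were highest in dendritic cells in all 4 libraries. Macrophages and monocytes came next, except for Ciita in RT1, where fibroblasts (3.80 CPM, 1 UMI) ranked above macrophages (2.58 CPM, 23 UMIs). H2-Aa, H2-Ab1 and H2-Eb1 were higher in monocytes in NT, RT1 and RT2 and higher in macrophages in RT3, so these neighbors did not differ beyond the spread over libraries. H2-DMb2 and Ciita were higher in monocytes than in macrophages in all 4 libraries, H2-DMb2 at 25.4 against 13.3 CPM in NT and at 23.1 against 2.24 CPM in RT1. The distance between dendritic cells and macrophages for H2-Aa went from 14591 against 6805 CPM in NT to 12559 against 857 CPM in RT1.

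Cells were also thinned to 1000 UMIs each, which removes differences of depth between libraries, and cells with fewer UMIs were left out (109, 438, 351 and 280 macrophages in NT, RT1, RT2 and RT3). At this depth 81.9% of NT macrophages held at least 1 class II UMI (Clopper-Pearson 95% interval 78.5% to 84.9%), against 32.0%, 48.1% and 44.5% in RT. Before thinning the shares were 89.8%, 47.3%, 69.9% and 55.2%. Neutrophils, which should make no class II, gave 16.7%, 9.84%, 11.8% and 5.41% after thinning, with the first value resting on 6 cells, at median depths of 657, 846, 929 and 755 UMIs against 2943, 2679, 4345 and 2405 in macrophages. The macrophage shares lay above these background values in every library.

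Thinned monocytes held at least 1 class II UMI in 74.8% of NT cells and in 39.4%, 47.4% and 32.5% of RT cells. For dendritic cells the shares were 100% of 59 NT cells (interval 93.9% to 100%) and 94.7%, 95.6% and 92.2% in RT. The number of class II UMIs per thinned cell told the types apart further. Its median was 14 in NT macrophages and 13 in NT monocytes but 0 in both types in each RT library, whereas in dendritic cells it was 44 in NT and 38.5, 31 and 35.5 in RT. Cells with 10 or more such UMIs made up 56.6% of NT macrophages and 6.39%, 13.2% and 13.5% of RT macrophages, so cells rich in class II RNA were the majority of NT macrophages and a minority of RT macrophages.

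**Figure D3:**
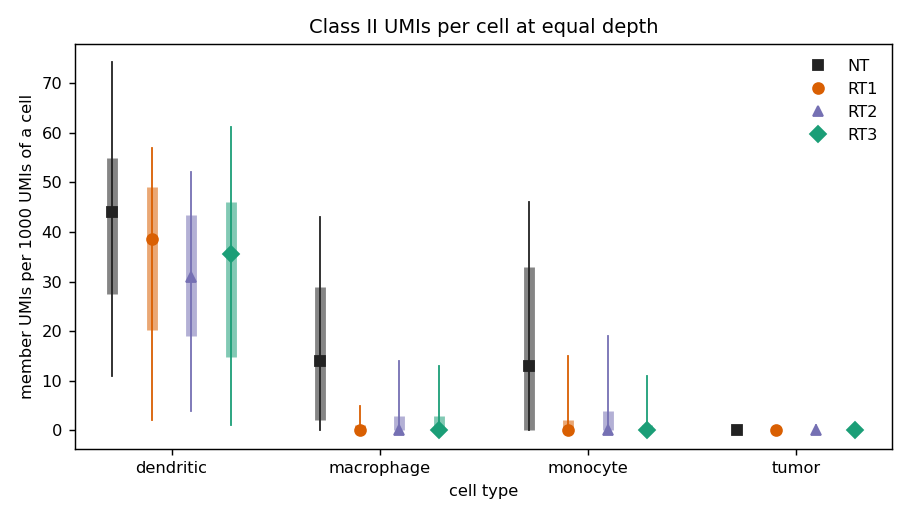
Class II UMIs per cell after thinning each cell to 1000 UMIs, by cell type and library. The points give the median and the bars the range between the quartiles. Medians of macrophages and monocytes are 14 and 13 in NT and 0 in RT1 to RT3, and those of dendritic cells stay between 31 and 44.

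Macrophages, monocytes and dendritic cells were divided further into 14 sub-clusters, again without the 9 genes. In all 14 of them the summed class II level was lower in every RT library than in NT, the smallest of them resting on 4 NT cells. The largest macrophage group, led by Lyve1 and Ccl8, held 19895 CPM in NT and 2824, 5911 and 5131 CPM in RT. The monocyte group led by Chil3 and Vcan held 13293 CPM in NT and 3136, 3734 and 1965 CPM in RT. In both of them NT lay above the RT libraries by more than the RT libraries lay apart.

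Groups with interferon-induced genes in front were no exception. The macrophage group led by Ifit1bl1 and Ifit3 held 16649 CPM in NT and 1468, 3081 and 1676 CPM in RT, and the monocyte group led by Slfn4 and Ifit1bl1 held 22577 CPM in NT and 4786, 6344 and 3080 CPM in RT. The ratios were smallest in the 2 groups with mostly dendritic cells. The group led by Cd209a and Ccl17, 56.0% of it dendritic cells, held 46442 CPM in NT and 25075, 28698 and 34540 CPM in RT (-0.67 ± 0.23). The group led by Ccr7 and Cacnb3, all of it dendritic cells, held 22489 CPM in NT (17 cells) and 11634, 12392 and 19306 CPM in RT (-0.68 ± 0.40).

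Since each tumor had its own mixture of these groups, the levels were also recomputed with the mixture of NT in every library, an alternative chosen after seeing the data. The summed level relative to NT was then -2.99, -2.04 and -2.28 in macrophages of RT1, RT2 and RT3, -1.84, -1.65 and -1.77 in monocytes, and -0.36, -0.54 and -0.26 in dendritic cells. Only sub-clusters with at least 10 cells of the type in each of the 4 libraries were used, and the other cells were left out. The dendritic values rest on 2 sub-clusters with 84.6% of the dendritic cells in NT and 92.1%, 90.7% and 84.1% in RT, whereas those of macrophages and monocytes each rest on 8 sub-clusters with at least 95.9% of the cells.

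**Figure D4:**
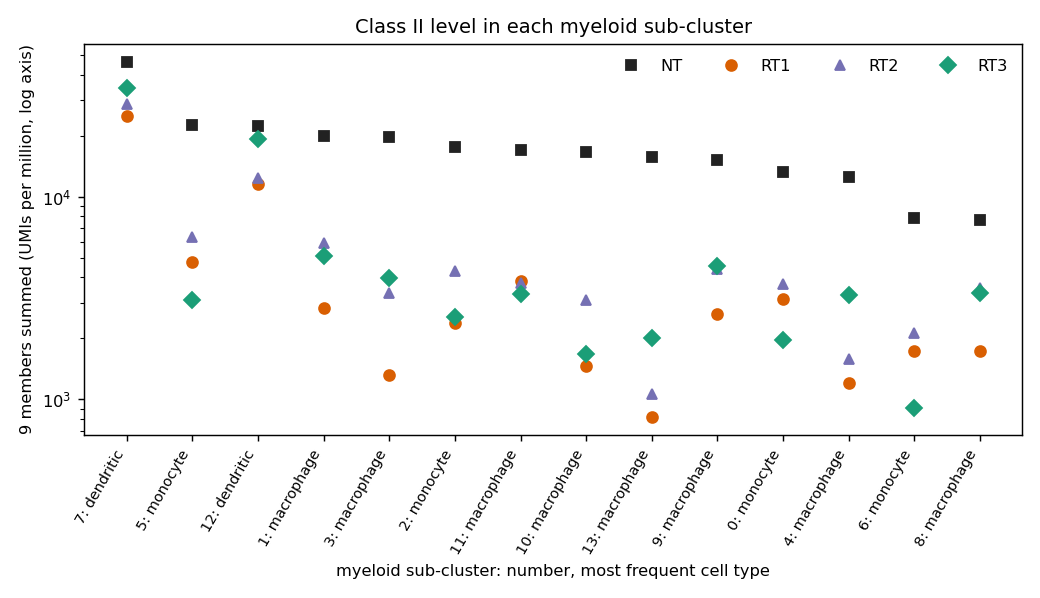
Summed class II level (CPM, log axis) in NT and in each RT library for the 14 sub-clusters of macrophages, monocytes and dendritic cells, 1 point per library. The NT point is the highest of the 4 in each of the 14 sub-clusters, and sub-cluster 7, the Cd209a group, is the highest in each library.

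The other genes of the route were read from lists, each given as genes lower or higher than NT in every RT library. Over all macrophage genes tested, 32.8% were lower, 34.6% higher and 2.42% at least 2-fold lower in every RT library. Of 11 regulators of class II transcription tested in macrophages, 7 were lower and 2 higher, and 1 was at least 2-fold lower. That gene was Prdm1, a repressor of Ciita, at 59.2 CPM in NT and 17.7, 21.2 and 17.9 CPM in RT (-1.65 ± 0.14). Spi1, the myeloid factor PU.1, stood at 335 CPM in NT and 222, 275 and 236 CPM in RT. Rfx5, which binds the X box, stood at 9.80 CPM in NT and 7.62, 6.46 and 7.29 CPM in RT. Irf8 lay on both sides of NT, at 123 CPM in NT and 79.9, 157 and 109 CPM in RT. The differences of Spi1 and Rfx5 were thus small beside those of Ciita and its targets.

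Of 7 interferon gamma signaling genes in macrophages 0 were lower and 3 higher, where 34.6% of all genes were higher. Ifngr1, the ligand-binding receptor chain, stood at 72.1 CPM in NT and 144, 143 and 109 CPM in RT (0.86 ± 0.23). Irf1, an interferon-induced transcription factor, lay on both sides of NT, at 398 CPM in NT and 219, 428 and 524 CPM in RT.

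Of 6 genes of antigen processing in lysosomes, 5 were higher than NT in every RT library of macrophages, where 34.6% of all genes were higher. Ctss, the protease that trims the invariant chain, stood at 5604 CPM in NT and 9109, 7415 and 8381 CPM in RT (0.56 ± 0.15), and Lgmn, an asparaginyl protease, at 1293 CPM in NT and 1736, 1646 and 1883 CPM in RT. Ifi30, a thiol reductase, lay on both sides of NT. Among 7 genes of MHC class I 4 were higher and 1 lower, beside 34.6% higher and 32.8% lower over all genes. H2-K1, a class I heavy chain, stood at 2417 CPM in NT macrophages and 3645, 3879 and 3842 CPM in RT (0.65 ± 0.05), and its light chain B2m at 7054 CPM in NT and 7913, 7843 and 7947 CPM in RT. Nlrc5, the class I counterpart of Ciita, lay on both sides at 47.4 CPM in NT and 37.7, 46.5 and 48.2 CPM in RT.

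Among genes of class II turnover at the surface, March1, the ligase that removes class II from it, stood at 46.3 CPM in NT macrophages and 54.1, 58.3 and 49.7 CPM in RT. Cd83, which opposes this ligase, stood at 950 CPM in NT macrophages and 546, 627 and 751 CPM in RT. In monocytes Cd83 was at least 2-fold lower in every RT library, at 1526 CPM in NT and 699, 752 and 642 CPM in RT. Of the costimulatory genes in macrophages, Cd40 stood at 60.4 CPM in NT and 36.1, 51.5 and 41.8 CPM in RT, while Cd86 was nearly level at 131 CPM in NT and 130, 103 and 131 CPM in RT.

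In monocytes 2 of 11 regulators were higher and 4 lower, 3 of 7 interferon gamma signaling genes higher and 0 lower, and 3 of 6 lysosomal genes higher and 0 lower. Of 7 class I genes 2 were higher and 3 lower. Over all monocyte genes 38.4% were higher and 26.8% lower, so that several of these counts were near the background. Spi1 stood at 415 CPM in NT monocytes and 216, 288 and 229 CPM in RT. In dendritic cells 5 of 7 class I genes were lower and 0 higher, beside 28.2% lower over all genes, among them H2-K1 at 2738 CPM in NT and 2260, 2280 and 1942 CPM in RT. All 7 interferon gamma signaling genes lay on both sides of NT in dendritic cells. Lag3, an inhibitory receptor for class II, had too few UMIs in lymphocytes to be compared (4, 5, 29 and 2), and Cd4, the coreceptor, stood there at 123 CPM in NT and 80.1, 58.9 and 46.2 CPM in RT.

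Tumor cells held little class II RNA, and no direction was common to the RT libraries. Of 7 members above the floor 0 were higher and 0 lower in every RT library, where 31.9% of all genes were higher, 31.3% lower and 3.25% at least 2-fold higher. H2-Aa stood at 20.3 CPM in NT tumor cells and 7.67, 36.9 and 11.9 CPM in RT. H2-Ab1 stood at 16.5 CPM in NT and 7.85, 36.8 and 11.1 CPM in RT, H2-Eb1 at 11.6 CPM in NT and 4.31, 25.2 and 6.19 CPM in RT, and Cd74 at 4.35 CPM in NT and 1.61, 9.54 and 2.84 CPM in RT. For each of these RT2 was highest, NT next and RT1 lowest. The median of the 7 genes was -1.07, 1.13 and -0.61. With RT2 left out all 7 were lower in the remaining pair of RT libraries (mean median -0.84), as were 39.8% of all genes.

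H2-DMa, H2-DMb1 and Ciita were also highest in RT2. H2-DMa stood at 1.53 CPM in NT and 0.775, 3.01 and 0.931 CPM in RT. H2-DMb1 stood at 6.86 CPM in NT and 5.07, 9.10 and 4.84 CPM in RT. Ciita stood at 0.960 CPM in NT (49 UMIs) and 0.616, 2.25 and 0.931 CPM in RT (31, 156 and 55 UMIs). H2-DMb2 had 1, 1, 13 and 3 UMIs and H2-Oa 3, 5, 17 and 5 UMIs in tumor cells of NT, RT1, RT2 and RT3, too few for a ratio.

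RNA of other cells can enter under a tumor barcode, and myeloid genes were read beside the members for this reason. The 12 myeloid RNA markers were all higher in tumor cells of every RT library and 11 of them at least 2-fold, with Lyz2, the most abundant, at 11.7 CPM in NT and 62.1, 62.3 and 30.5 CPM in RT. Expressed as a percent of the macrophage level in the same library, the median myeloid marker stood at 0.0697% in NT and 0.296%, 0.351% and 0.159% in RT. The median of the 8 members with a macrophage level stood higher, at 0.349% in NT and 1.199%, 3.55% and 1.21% in RT. The macrophage level of the members, by which they are divided here, was itself lower in RT. The part of myeloid RNA in the class II UMIs of tumor cells was not tested.

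H2-DMb1 had the highest of these percentages. Its tumor level was 10.7% of the macrophage level in NT and 53.8%, 39.6% and 27.7% in RT, and tumor cells carried 54.5%, 52.6%, 46.5% and 55.9% of all its UMIs. It made up 11.04% of the class II UMIs of tumor cells in NT, against 0.385% in NT macrophages. Ciita followed at 3.60% in NT and 23.9%, 21.6% and 16.2% in RT, while H2-Aa lay at 0.299% in NT and 0.895%, 2.40% and 0.698% in RT. Overlapping transcripts at the H2-DMb1 locus were not examined, and their part in its tumor cell UMIs was not tested.

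**Figure D5:**
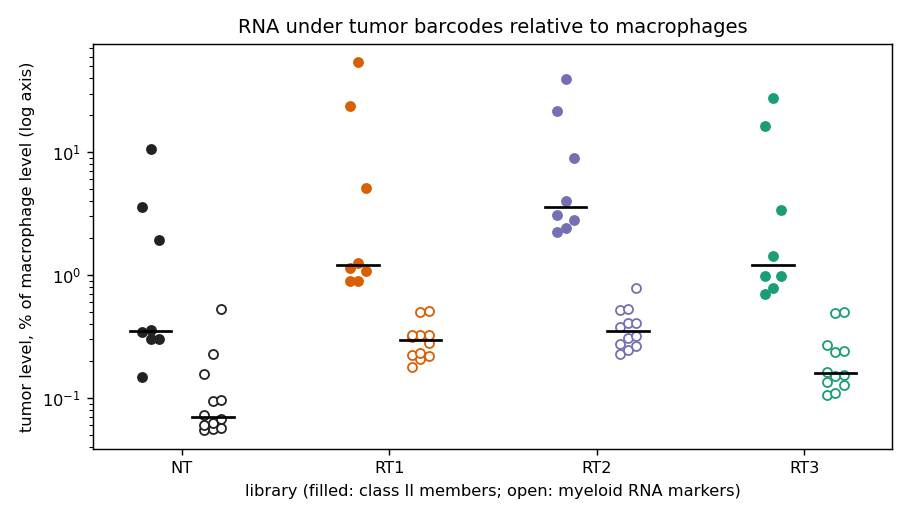
Level in tumor cells as a percent of the level in macrophages of the same library (log axis) for 8 class II genes (filled points) and 12 myeloid RNA markers (open points). The median class II gene lies above the median myeloid marker in each library, and H2-DMb1 is the highest class II gene at 10.7% to 53.8%.

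Class II UMIs were unevenly spread over tumor cells. Cells with 10 or more of them numbered 49 in NT, 13 in RT1, 175 in RT2 and 28 in RT3, or 0.857%, 0.194%, 2.74% and 0.378% of tumor cells, and carried 26.6%, 14.3%, 41.5% and 23.3% of the tumor cells' class II UMIs. Rhox5, a tumor cell marker, stood at 1220, 1157, 1112 and 1156 CPM in them, near the 1063, 1307, 1214 and 1194 CPM of tumor cells without class II UMIs. Myeloid markers summed to 304, 1262, 190 and 147 CPM in them, against 25.5, 126, 148 and 73.3 CPM in cells without class II UMIs. The myeloid sums were closest in RT2, where such cells were most frequent, and were further apart in NT, RT1 and RT3.

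In the same RT2 cells H2-K1 stood at 3122 CPM against 2108 CPM in cells without class II UMIs, and B2m at 5303 against 3890 CPM. In NT the values were 2206 against 1405 CPM for H2-K1 and 5019 against 3323 CPM for B2m. Cells with many class II UMIs were also deeper, at a median of 12464 UMIs against 7528 in RT2, and were set apart by the count itself, so these values are a description. After thinning to 1000 UMIs, 5.11% of NT tumor cells and 3.02%, 10.7% and 3.38% of RT tumor cells held a class II UMI, in each library no more than the share of neutrophils, so this share alone is not above background.

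In endothelial cells, 34 of them in NT, the members summed to 981 CPM in NT and 390, 1102 and 484 CPM in RT. Of 4 members above the floor 1 was lower in every RT library and 0 higher, where 28.8% of all genes were lower and 28.8% higher. That was Cd74, at 107 CPM in NT and 22.3, 108 and 55.6 CPM in RT, where RT2 was level with NT and passed only through the 0.5 UMI added. The count depended on the setting. All 4 were lower without RT2 (33.8% of all genes), without likely doublets (28.1%) and without cells with UMIs of 2 or more myeloid markers (28.4%), but 0 with TMM factors (29.2%), an alternative scaling of library size, and 0 of 3 with a floor of 200 UMIs (32.1%). Macrophage markers summed to 5.64, 66.8, 597 and 39.7 CPM in these cells, highest in RT2, and their part in the RT2 level was not tested.

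In lymphocytes, which were led by cytotoxic genes such as Gzmb, the members summed to 417 CPM in NT and 153, 398 and 102 CPM in RT. Of 4 members above the floor 2 were lower in every RT library and 0 higher, where 38.4% of all genes were lower and 22.1% higher. H2-Aa stood at 165 CPM in NT and 56.0, 135 and 28.3 CPM in RT, and H2-Eb1 at 96.6 CPM in NT and 28.0, 90.2 and 18.9 CPM in RT. The median of the 4 was -1.25 ± 1.11, and it turned to 0.24 once cells with UMIs of 2 or more myeloid markers were left out, when 0 of the 2 members that still met the floor were lower in every RT library, against 30.1% of all genes. The count of lower members was 4 without RT2 (44.6% of all genes), 4 without likely doublets (36.0%), 4 with per-cell means (31.7%) and 5 of 9 with no minimum of UMIs (34.0%). It was 1 with TMM factors (28.8%), 1 with at most 10% mitochondrial UMIs (38.8%), 1 with at least 500 detected genes (38.8%) and 0 with each library clustered alone (38.3%), so no direction is read from it. B cell markers, which would mark the lymphocytes known to carry class II, summed to 7.43 CPM in NT and 2.54, 0.934 and 6.29 CPM in RT.

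The unnamed cluster led by Chil3, Cxcl3 and Osm was nearest to tumor cells by its markers. Its class II genes summed to 4605 CPM in NT and 659, 1404 and 897 CPM in RT. The unnamed cluster led by Dpt and Sox9 held 51.1 CPM in NT and 28.0, 83.1 and 28.3 CPM in RT, the order of the libraries in tumor cells. Neutrophils held 162 CPM in NT (9 UMIs) and 303, 210 and 71.8 CPM in RT.

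H2-Oa had too few UMIs for its profile to be read. It had 7, 11, 25 and 6 UMIs in all cells of NT, RT1, RT2 and RT3, of which tumor cells held 3, 5, 17 and 5 and lymphocytes 1, 3, 4 and 1. Over the 24 pairs of cell type and library, the log2 levels of the other 8 members correlated with the mean of the remaining members at r from 0.84 for H2-DMb1 to 0.98 for H2-Eb1. These 24 points share libraries and cell types, and the values are descriptive.

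Across the same 24 points, the genes with a profile most like the mean of the members, of 12328 compared, were Grk3 (r = 0.96), Rab43 (0.95), Rnase6 (0.95), Htr7 (0.95), Cd40 (0.94), Plbd1 (0.94), Tep1 (0.94), Bcl2a1a (0.94), Wdfy4 (0.93) and Mmp25 (0.93). All 10 were highest in dendritic cells when averaged over libraries. Wdfy4, a gene known for cross-presentation in dendritic cells, averaged 360 CPM there, 53.9 CPM in monocytes, 31.0 CPM in macrophages and 0.501 CPM in tumor cells. Plbd1, a lysosomal phospholipase-like protein, averaged 442 CPM in dendritic cells, 156 CPM in monocytes and 128 CPM in macrophages.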

How the data were processed

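Single-cell RNA sequencing of 4 libraries of LLC tumors was re-analyzed. The authors prepared them with a SeekOne MM 3′ kit, processed reads with SeekOne Tools and deposited UMI counts per gene and barcode, whole numbers without normalization, after calling cells. The submitters' processing notes name STAR 2.5.1b, featureCounts (Subread 1.6.4), Cell Ranger and the build GRCm39. Positions and sequences here are GRCm38, that of the reference tables used, and no deposited coordinate was used. No column of another series or of the authors' own comparisons was present.

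The members and lists were chosen with earlier results of these data known. Genes were joined by symbol (18596). Cells needed 200 detected genes and no more than 20% mitochondrial UMIs. Counts were scaled to 10000 per cell, and 2000 variable genes, without the members and the lists unless they were cell type markers, gave 30 principal components. These were integrated with a rewritten Harmony algorithm and clustered with leidenalg 0.10.2 (resolution 0.8, 20 neighbors, seed 1). Clusters took the class whose scaled markers scored highest, or stayed unnamed where leading genes went against it or cells were shallow. This rule was settled after clusterings were viewed. Cell types were rebuilt here and may differ from those of the study. Doublets were not removed in the main values, and 8% were removed as an alternative.

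UMIs were summed per library and cell type and divided by their total (CPM). NT is 1 library, so no p-value was computed. Intervals are exact Poisson or Clopper-Pearson at 95% and cover counting error only. Likeness used genes with at least 200 UMIs, log2(CPM + 1) and Pearson's r. Named genes were all members, a fixed set of list genes, other list genes past 2-fold in every RT library, and the 10 most alike. The ratio and the 2-fold rule were tried on simulated counts with known fold changes in macrophages and dendritic cells. These counts had no spread between libraries beyond counting error, and the other steps were not tried on simulated data. Tools were Python 3.11.15, NumPy 2.4.6, pandas 2.3.3, SciPy 1.17.1, scikit-learn 1.9.0 and, for TMM factors, edgeR 4.0.16 in R 4.3.3. H2-Ea was not analysed here, and a few other list genes are not reported here.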

Additional observations from a re-analysis of the deposited data

Results flagged for a closer look

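No member was flagged. Of the other named genes, 7 had every RT library above NT in 1 cell type and every RT library below NT in another, with differences between cell types that were not tested. Between tumor cells and monocytes the difference in mean log2 ratio was 2.20 for Spi1 (1.43 in tumor cells, -0.78 in monocytes), 2.45 for Cd83 (1.32 and -1.13) and 2.20 for Cd86 (1.94 and -0.26, on 5 UMIs in NT tumor cells). Ptprc, the leukocyte marker, differed by 1.11 between tumor cells (0.70) and macrophages (-0.42). The tumor cell levels of Spi1, Cd83, Cd86 and Ptprc were low, with Cd83 at 0.803 CPM in NT and at most 2.92 CPM in RT, and all 12 myeloid RNA markers were higher there too. Their part was not tested. March1 differed by 0.40 between macrophages (0.22) and monocytes (-0.18). H2-K1 differed by 0.99 between macrophages (0.65) and dendritic cells (-0.35), and B2m by 0.46 between macrophages (0.16) and endothelial cells (-0.30). Groups of 3 libraries are too small for a search for outlying samples.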

How the results depend on the processing

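No paired analysis was possible, because NT was 1 pool of 3 tumors and each RT library came from a separate irradiated tumor. Of 273 alternative values of the summary results, 235 stayed within a margin set around the main value, 37 moved and 1 reversed. The margin was the SD over RT libraries, the counting interval or, for counts of members, a set fold. For medians, a change of sign was looked for only where all RT libraries lay on 1 side of NT. In tumor and endothelial cells they did not, and the tumor cell median (-0.18 ± 1.16) could change sign within its margin. Member ratios stayed below 0 in 96 of 96 alternatives in macrophages (-2.77 to -1.39), 95 of 96 in monocytes (-2.62 to 0.00) and 79 of 80 in dendritic cells (-1.10 to 0.00). Reversals came in lymphocytes without cells with UMIs of 2 or more myeloid markers, where the member median was 0.24 and H2-Aa 0.14. There 0 members were lower in every RT library, against 2 in the main values.

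Members lower than NT in endothelial cells (1 in the main values) are given with the share of all genes. They numbered 3 with at most 10% mitochondrial UMIs (29.1%), 2 with at least 500 genes (29.2%) and 3 at resolution 1.2 (28.9%). They numbered 4 without doublets (28.1%), 4 without myeloid-marker cells (28.4%) and 0 with TMM factors (29.2%). With 5 UMIs added 3 were lower (31.1%), with at least 200 UMIs 0 of 3 (32.1%), and with no minimum 2 of 7 (26.4%). Members lower in lymphocytes numbered 1 with at most 10% mitochondrial UMIs (38.8%), 1 with at least 500 genes (38.8%) and 0 with each library clustered alone (38.3%). They numbered 4 without doublets (36.0%), 1 with TMM factors (28.8%), 4 with per-cell means (31.7%) and 5 of 9 with no minimum (34.0%). With no minimum 2 of 9 members were higher in tumor cells, against 31.9% of all genes. Per-cell means gave a dendritic median of -0.47. Leaving out each RT library in turn gave 0 to 7 members lower in tumor cells (34.8% to 39.8% of all genes), 0 to 1 at least 2-fold lower in dendritic cells (1.41% to 1.97%), 1 to 4 lower in endothelial cells (33.8% to 38.4%) and 2 to 4 in lymphocytes (44.5% to 48.2%). The highest member count of each came without RT2, and monocytes then had 6 members at least 2-fold lower in place of 4 (2.31% of all genes in place of 1.13%).

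The NT sum was 16449 CPM in macrophages and 332 CPM in lymphocytes with each library clustered alone, when NT formed no monocyte, dendritic or endothelial cluster. Without doublets it was 55.9 CPM in tumor cells, 17093 in macrophages, 19978 in monocytes, 41368 in dendritic cells and 538 in lymphocytes. Thinned to 2000 UMIs, cells with a class II UMI made up 9.26% of NT tumor cells, 85.7% and 51.3% (RT mean) of macrophages, 87.3% and 49.9% of monocytes and 97.8% of RT dendritic cells. Alternatives chosen after seeing the data were the addition of unnamed clusters, the removal of dendritic-marker cells or of tumor cells rich in class II UMIs, and NT sub-cluster shares, under which RT monocytes averaged 5724 CPM. The causes of these shifts were not tested. Limits are the single NT library, the few dendritic (78) and endothelial (34) cells in NT, and low counts of Ciita and H2-Oa.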

Other observations

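The 5 markers of mast cells and basophils were highest in RT3. They summed to 549 CPM in RT3 lymphocytes, led by the protease gene Cpa3 at 412 CPM, against 9.56, 49.6 and 55.1 CPM in NT, RT1 and RT2. In RT3 macrophages they summed to 38.9 CPM, against 0.392, 0.224 and 0.225 CPM in the other libraries, and in monocytes of each library to 0.545 CPM or less. The class II sum of RT3 was the lowest of the 4 libraries in lymphocytes (102 CPM).

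Fibroblasts, which were few (18 cells in NT), held 847 CPM of class II RNA in NT and 482, 343 and 684 CPM in RT. Macrophage markers summed to 69.0, 216, 240 and 433 CPM in the fibroblasts of NT, RT1, RT2 and RT3, and their part in these class II levels was not tested. Plasmacytoid dendritic markers had 0 UMIs in NT dendritic cells and 8, 7 and 3 UMIs in RT (37.1, 10.5 and 11.5 CPM).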
